A study of Sus scrofa with 4 samples.

Results

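The channel and connexin genes on the porcine array are the genes whose single symbol in the platform annotation begins with KCN (potassium channels), CACN (calcium channels), CLCN (chloride channels and transporters), GJA, GJB or GJC (connexins), SCN and a digit (sodium channels) or HCN and a digit (pacemaker channels). The symbols alone chose them. They comprised 35 genes of the 6765 with a symbol of their own, measured by 56 of 10099 probe sets. Where several probe sets measured a gene, the one with the highest mean log2 signal stood for it, and 18 of the 35 reached a mean signal of 64 units, as did 5521 of all genes. The remaining 17 were dimmer. KCNIP1 (67.5 units) and KCNJ3 (67.9) lay just above this limit, and KCNA6 (59.9) and KCNN4 (54.4) just below it. No SCN or HCN gene, and no 2-pore domain potassium channel (KCNK), had a named probe set, and 13826 of the 24123 probe sets carried no symbol in the annotation used. Of 44 channel genes listed for their known part in cardiac or vascular cells, 19 had a named probe set and 14 reached 64 units.

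The tissue came from 4-month-old female Chinese Bama minipigs in which the left circumflex coronary artery had been tied off permanently. One array was made from the border zone and 1 from the infarct zone of hearts that had received human myoblasts in DMEM by injection into the heart muscle, and 1 from each of these zones of control hearts, 4 arrays in all. According to the methods, the myoblast group and the DMEM-injected control treatment group both received cyclosporin A, and the study describes its arrays as a comparison of these groups. The labels instead call the control tissue untreated, so the sources differ on whether the control hearts received DMEM and cyclosporin A. The number of minipigs behind an array and the time of sampling are not stated. Each condition has 1 array, so the spread between minipigs is unknown and the ratios describe these arrays only. The infarct zone and border zone are called the infarct and the border below, and the mean of the log2 ratios at the border and in the infarct is called the zone mean. The grafted cells are human according to the methods, and the probes are porcine. Of 14 skeletal muscle and myoblast markers, 7 had a named probe set and 1 (CHRNA1) reached 64 units. Their summed signals were 189 and 203 at the border and in the infarct with myoblasts and 234 and 241 in controls.

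Ion channels carry the currents of the cardiac action potential. Sodium and calcium channels depolarise the cell, and several kinds of potassium channel repolarise it. Many channels are assembled from a pore subunit and auxiliary subunits that set their surface level and gating. Connexins join neighbouring cells into gap junctions, through which the action potential spreads, and remodelling of both groups is a known feature of infarcted myocardium.

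The difference between the control arrays depended on signal. These arrays come from different zones, so the shares mix zone differences with noise and do not measure the spread between minipigs. Between the control arrays of border and infarct zone, 42.4% of genes under 64 units lay at least 2-fold apart, 4.62% of those from 64 to 256 units, 0.402% of those from 256 to 2048 units, and 0 of 1087 genes from 2048 units upwards. Of the channel and connexin genes, 9 lay in the band from 64 to 256 units, 6 in the next and 3 in the brightest. The array medians were 137 to 142 units. The plot of signals on each array gives all 4 values of each of the 18 genes.

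**Figure D1:**
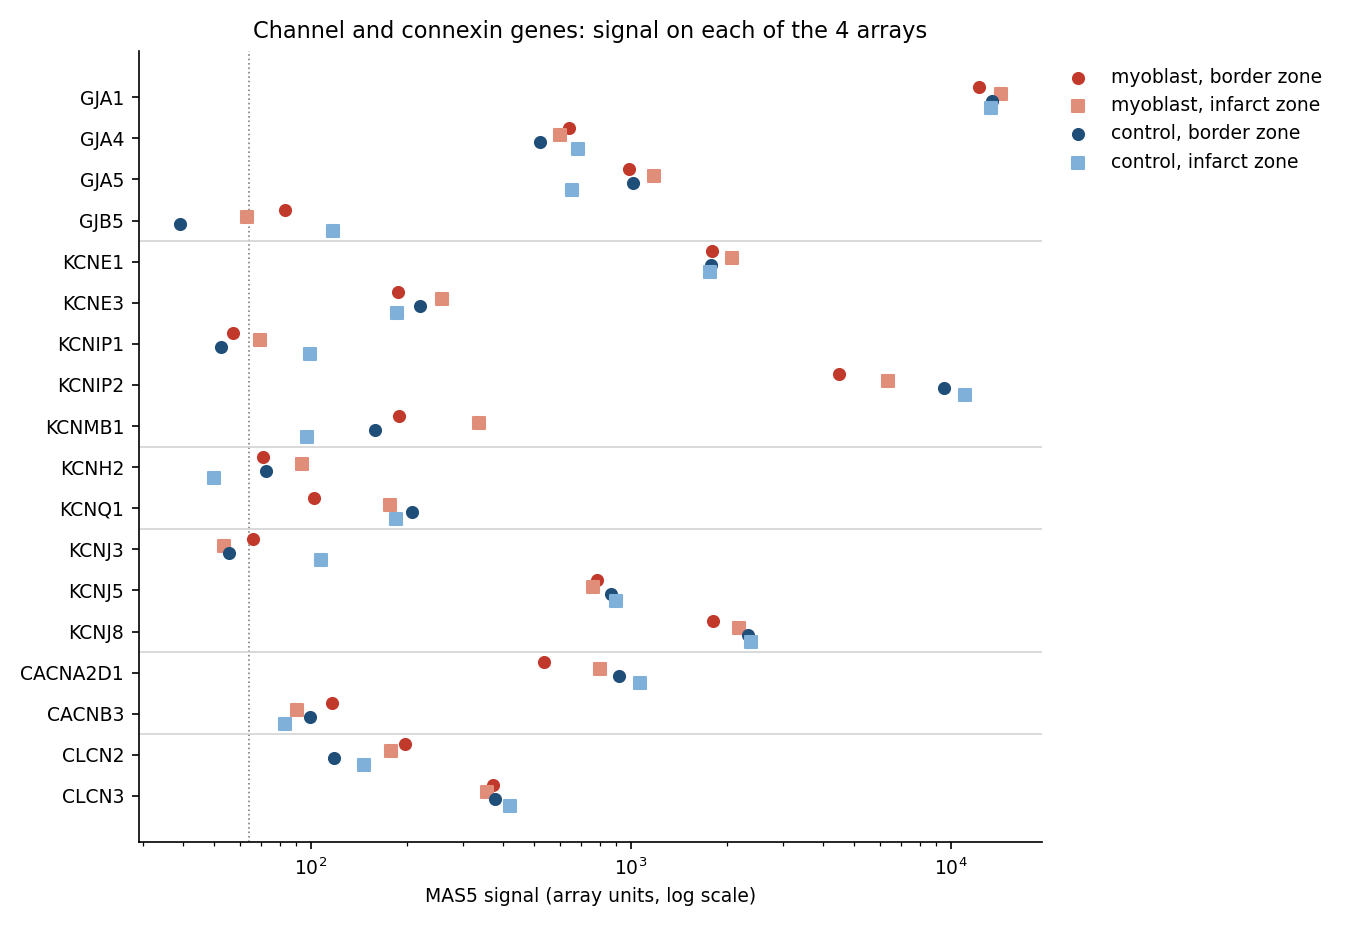
MAS5 signal (x axis, array units, log scale) of the 18 channel and connexin genes with a mean signal of at least 64 units (y axis, grouped by role). Each point is 1 array, circles stand for the border zone and squares for the infarct zone, and the dotted line marks 64 units. KCNIP2 lies at 4477 and 6369 on the myoblast arrays and at 9519 and 11078 on the control arrays, while the GJA1 points lie between 12264 and 14354.

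Among the auxiliary subunits of potassium channels, KCNIP2 was at least 1.5-fold lower with myoblasts in both zones. KCNIP2 encodes KChIP2, a calcium-binding subunit that carries Kv4 channels to the surface and is needed for the transient outward current of ventricular myocytes. At the border its signal was 4477 with myoblasts and 9519 in control tissue, and in the infarct 6369 and 11078. These are 0.470 and 0.575 times the control signal of the same zone, and 0.520 times in the zone mean (log2 -0.94). KCNIP2 was the only 1 of the 18 genes at least 1.5-fold lower in both zones, a rule met by 3.10% of all genes of at least 64 units and by 2.67% of those of at least 2048 units. Among the 1087 genes of at least 2048 units, 13 had a mean ratio as low as or lower than that of KCNIP2. In a limma fit with zone across all 24123 probe sets, the 2 zones of each treatment supplied the only spread. KCNIP2 had an unadjusted p of 0.033 and an adjusted p of 0.566, so it did not pass the threshold. Of all probe sets, 2125 had an unadjusted p under 0.05 in this fit. KCNIP2 was singled out by these same ratios, so its rank and p give no separate support. KCNIP2 was measured by a single probe set, and a lower signal in whole tissue cannot tell fewer myocytes from less RNA per myocyte.

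Most cardiomyocyte markers were lower with myoblasts too, but by less. Of 12 markers, 9 had a named probe set, all of at least 64 units, and 7 of these were lower in both zones. Their summed signals were 165790 and 175612 at the border and in the infarct with myoblasts and 189554 and 221378 in controls, and none stood at the lowest possible signal. The contractile markers and RYR2 had log2 ratios of -0.47 to -0.02 at the border and of -0.44 to 0.18 in the infarct, against -1.09 and -0.80 for KCNIP2. KCNIP2 was thus 0.77 and 0.41 log2 units below the median of the 9 markers in the same zones. The natriuretic peptides of the list, which rise under wall stress, went opposite ways. NPPA was higher in both zones at 4.24 and 3.38 times control. The brighter NPPB was lower in both, at 0.789 and 0.964 times. The part of myocyte content in the KCNIP2 difference was not tested.

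The other auxiliary subunits had smaller or less even differences. KCNE1, the beta subunit of the slow delayed rectifier, had border zone signals of 1799 with myoblasts and 1777 in control tissue, and infarct zone signals of 2071 and 1773. These are ratios of 1.01 and 1.17, so the 3 lowest arrays were nearly alike. Its other 2 probe sets were dim, and one of them read 2.42 on the myoblast border array and 64.5 to 107 on the others. KCNE3, which associates with KCNQ1 in epithelia, gave 187 against 220 at the border and 257 against 186 in the infarct, with overlapping groups. KCNIP1, a relative of KChIP2 best known from neurons, gave 57.1 against 52.7 and 69.4 against 99.7, close to the signal limit. Unlike KCNIP2, neither gene lay on the same side of control in both zones.

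KCNMB1, the beta subunit that tunes the large-conductance calcium-activated potassium channel of smooth muscle, was the only 1 of the 18 genes at least 2-fold higher in the zone mean. Its signals were 189 with myoblasts and 159 in control tissue at the border, and 336 and 97.4 in the infarct. The difference lay in the infarct (3.45 times) and was small at the border (1.19 times), for a mean of 2.02 times. A dimmer KCNMB1 probe set was level at the border, at 44.4 against 44.3 (1.0 times), and ran the other way in the infarct, at 23.3 against 79.3 (0.294 times). Averaged over both probe sets, the log2 ratio was 0.07, so the call rests on the choice of probe set. It also ended under scalings that shifted the value only slightly, at 0.998 with quantile normalization and 0.988 with each array centred on its median. The pore subunit KCNMA1 was dim, with signals of 55.0 against 23.6 at the border and 28.8 against 54.4 in the infarct. Of 9 smooth muscle and pericyte markers, 8 reached 64 units, of which 5 were higher and 3 lower in both zones. Their summed signals were 43364 and 41863 with myoblasts and 41238 and 39609 in controls. Single markers varied. ACTA2 was 1.05 and 1.73 times control and TAGLN 1.83 and 1.95 times, but RGS5 was 0.714 and 0.768 times. DES, at 0.835 and 0.709 times, is in these counts and sums but is not confined to smooth muscle. The part of smooth muscle content in the KCNMB1 difference was not tested.

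Few of the 18 genes passed 2-fold in any comparison. In the zone mean, 1 gene (KCNMB1) was at least 2-fold higher, 5.56% of the set against 2.10% of all genes of at least 64 units, and none was at least 2-fold lower, against 1.45%. At the border alone 1 was higher (GJB5, background 2.97%) and 2 were lower (KCNIP2 and KCNQ1, background 2.03%). In the infarct alone 1 was higher (KCNMB1, background 3.01%) and 1 lower (KCNJ3, background 2.30%). None was at least 1.5-fold higher in both zones, against 3.64% of all genes. Since 1 gene of 18 already makes 5.56%, nothing particular to the set is read from counts of 0 to 2. The median log2 ratio of the 18 genes was 0.02 in the zone mean, and that of all genes of at least 64 units 0.02.

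**Figure D2:**
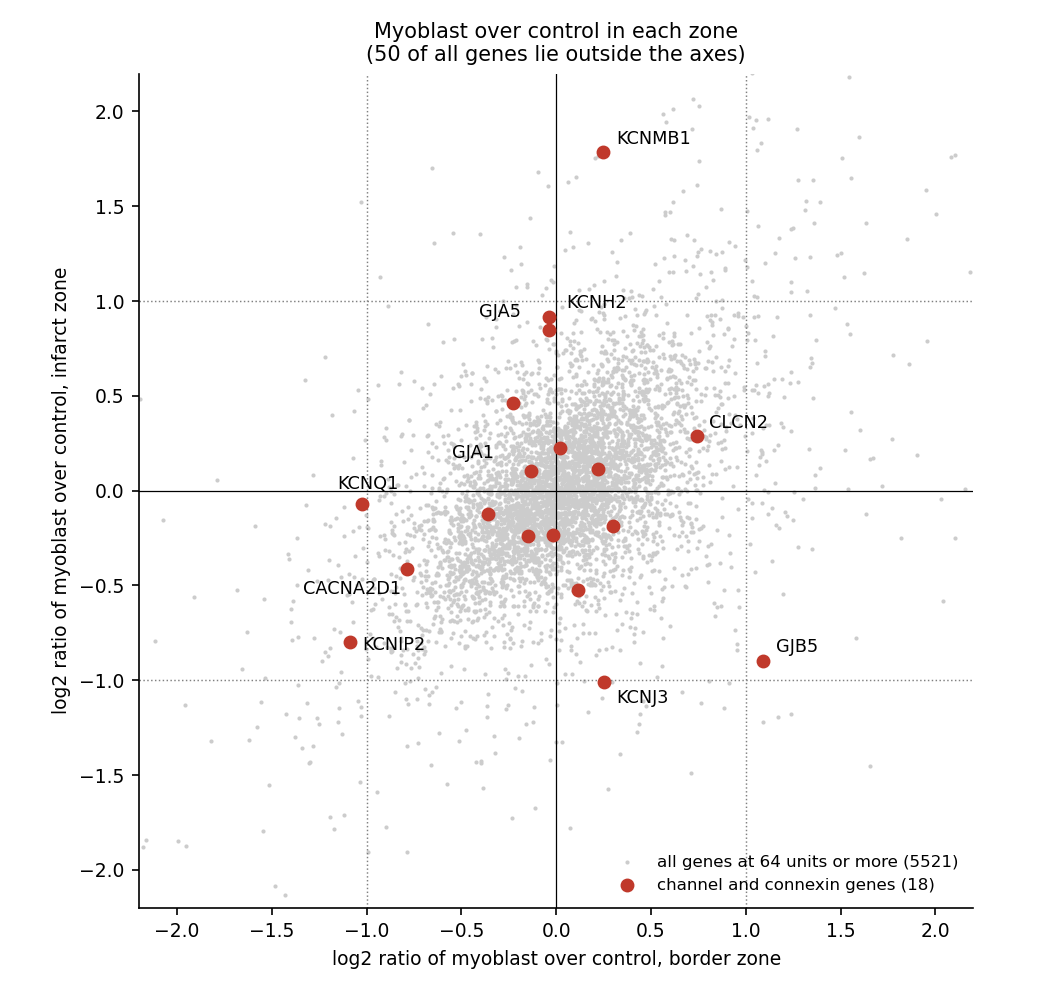
Log2 ratio of myoblast over control at the border (x axis) and in the infarct (y axis) for the 18 channel and connexin genes (red) over all genes with a mean signal of at least 64 units (grey). Dotted lines mark 2-fold; KCNIP2 lies low on both axes (-1.09 and -0.80), KCNMB1 high in the infarct (1.78), and GJB5 on opposite sides (1.09 and -0.90).

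The connexins of working myocardium and vessels showed no 2-fold difference. GJA1 encodes connexin 43, the main connexin of ventricular myocytes. Its signal was 12264 with myoblasts and 13452 in control tissue at the border, and 14354 and 13336 in the infarct. These are ratios of 0.912 and 1.08, on either side of 1, and the groups overlapped. GJA4 (connexin 37 of endothelium) gave 642 against 521 and 600.4 against 683, or 1.23 and 0.879 times control. GJA5 (connexin 40 of atria, conduction fibres and arterial endothelium) was level at the border, at 991 against 1016, and higher in the infarct, at 1181 against 656 (1.80 times). The control infarct array was the lowest of the 4 for GJA5, and the other 3 lay between 991 and 1181.

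Of 9 endothelial markers, 7 reached 64 units, and 4 of these were higher with myoblasts in both zones and none lower in both. Their summed signals, over all 9, were 8023 and 10005 with myoblasts against 7918 and 7584 in controls. The sum, like GJA5, was thus highest on the myoblast infarct array, but single markers varied. CDH5 (VE-cadherin) was 1.37 and 2.04 times control, PECAM1 0.860 and 1.12 times, and ENG 1.21 and 0.822 times. TIE1, under 64 units, was 0.192 and 0.414 times control. The part of endothelial content in the GJA5 difference was not tested. GJB5, an epithelial connexin, had signals of 83.2 against 39.0 at the border and 63.1 against 118 in the infarct, on opposite sides of control. Its second probe set was dimmer and ran lower in both zones (0.789 and 0.800 times). No other of the 18 genes was at least 1.5-fold in opposite directions in the zones, which 0.634% of all genes were.

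Among pore subunits of repolarising channels, KCNQ1, KCNJ5 and KCNJ8 were below control in both zones by their brightest probe sets. KCNQ1, the pore of the slow delayed rectifier that pairs with KCNE1, had signals of 102 with myoblasts and 208 in control tissue at the border, and 177 and 185 in the infarct. The myoblast border array stood apart from the other 3, and the ratios were 0.492 and 0.954. Its other 3 probe sets were under 64 units, and 2 of them ran opposite ways at the border and in the infarct. KCNH2, the pore of the rapid delayed rectifier, gave 71.0 against 72.8 and 94.3 against 49.9, near the signal limit. The control infarct array was the lowest and the myoblast infarct array the highest of the 4 for KCNH2, a ratio of 1.89.

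KCNJ8 encodes Kir6.1, the ATP-sensitive potassium channel pore of vascular smooth muscle and pericytes. It had signals of 1806 against 2319 at the border and 2186 against 2383 in the infarct. All 3 KCNJ8 probe sets were lower with myoblasts in both zones, with ratios of 0.779, 0.752 and 0.625 at the border and of 0.917, 0.898 and 0.923 in the infarct. The differences were small, and the myoblast border array was the lowest of the 4 in each probe set. KCNJ5 (Kir3.4), a subunit of the acetylcholine-activated potassium channel, gave 785 against 871 and 764 against 902, or 0.901 and 0.847 times control. A second KCNJ5 probe set, under 64 units, gave 2.36 and 0.728 times, and the log2 ratio of the zone mean was -0.19 with the brighter probe set and 0.098 with both averaged. Its partner KCNJ3 (Kir3.1) lay near the signal limit at 66.0 against 55.4 and 53.7 against 108, so that the control infarct array stood above the other 3. The direction of KCNJ3 depended on the probe set, since a second one of 1.57 to 6.59 units gave 2.81 and 1.94 times control, and averaging both took the log2 zone mean from -0.38 to 0.42. KCNJ2 (Kir2.1), the main inward rectifier of ventricular myocytes, was under the limit, with signals of 25.2 against 55.4 and 36.3 against 53.6.

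Calcium channel subunits were represented by CACNA2D1 and CACNB3 at 64 units or more. CACNA2D1 encodes the alpha2delta-1 subunit that accompanies the cardiac L-type channel. Its signal was 535 with myoblasts and 922 in control tissue at the border, and 804 and 1069 in the infarct. These are 0.580 and 0.752 times control, a smaller difference than that of KCNIP2 in each zone. CACNB3 gave 117 against 99.9 and 90.5 against 83.4, or 1.17 and 1.08 times. No CACNA1 pore subunit had a named probe set, and CACNB2, the main cardiac beta subunit, was at 5.93 to 28.4 units. CACNG3, a subunit family member known from neurons, was the sole dim gene at least 2-fold higher in both zones, with signals of 68.8 against 11.1 and 112 against 20.3. It was singled out after its values were seen, and its control signals lie in the range where 42.4% of genes differed 2-fold between control zones.

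The chloride genes of at least 64 units, CLCN2 and CLCN3, gave ratios between 0.851 and 1.67. CLCN2, a plasma membrane chloride channel, had signals of 198 against 118 at the border and 179 against 147 in the infarct. These are 1.67 and 1.22 times control. CLCN3, an endosomal chloride and proton exchanger, gave 372 against 377 and 356 against 419, and its other probe sets gave 1.51 and 1.29 times, and 1.08 and 0.877 times, so its direction differed among probe sets.

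Of the 18 genes, 4 were higher with myoblasts in both zones, 6 lower in both (CACNA2D1, CLCN3, KCNIP2, KCNJ5, KCNJ8 and KCNQ1) and 8 on opposite sides of control. Of all genes of at least 64 units, 34.9% were higher in both zones, 32.1% lower in both and 32.9% on opposite sides, against 44.4% on opposite sides here. Among the 17 dimmer genes, log2 ratios spanned -3.07 to 2.76 at the border and -1.53 to 2.47 in the infarct, a wider spread than in the 18 brighter ones (-1.09 to 1.09 and -1.01 to 1.78). The median absolute log2 ratio was 0.71 in the dim genes and 0.22 in the brighter ones in the zone mean.

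**Figure D3:**
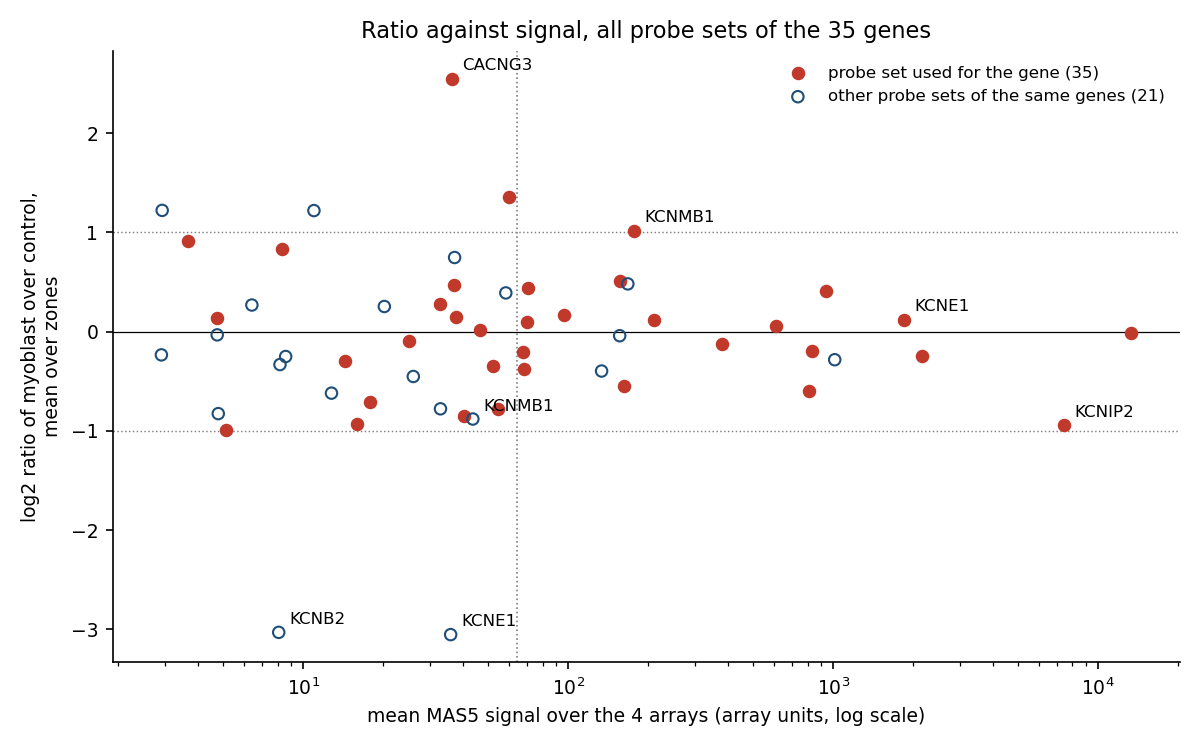
Log2 ratio of myoblast over control in the zone mean (y axis) against mean signal (x axis, array units, log scale) for the 56 probe sets of the 35 genes. Filled points are the probe sets used and open points the other probe sets of the same genes; the vertical line marks 64 units, under which the largest ratios in either direction lie, among them dim probe sets of KCNE1 and KCNB2. KCNIP2 is the bright point near -0.94.

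The border and infarct zones were compared within each treatment. In controls, 1 of the 18 genes was at least 2-fold higher in the infarct (GJB5, 3.01 times), against 0.706% of all genes, and none at least 2-fold lower, against 0.725%. After myoblasts none was at least 2-fold higher (background 1.18%) and none at least 2-fold lower (1.88%). The signal was higher in the infarct than at the border, by any amount, for 10 of the 18 in controls and 11 after myoblasts, against 55.1% and 54.0% of all genes. No gene of the 18 was at least 1.5-fold apart between zones the same way in both treatments, a rule met by 0.978% of all genes.

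CACNA2D1, GJA1, KCNIP2, KCNJ8 and KCNQ1 had their lowest signal on the myoblast border array. The share of all genes lowest on that array was not counted, so nothing particular to the set is read from it. The infarct over border ratio was 1.16 in controls and 1.42 after myoblasts for KCNIP2, and 0.893 and 1.73 for KCNQ1. For CACNA2D1 it was 1.16 and 1.5, for KCNJ8 1.03 and 1.21, and for GJA1 0.991 and 1.17. The median log2 ratio of infarct over border was 0.05 in controls and 0.24 after myoblasts for the 18 genes, and 0.03 and 0.03 for all genes of at least 64 units. The value after myoblasts was 0.080 when all probe sets of a gene were averaged and 0.11 when each array was floored at its median signal. The control value was 0.20 with all probe sets averaged, and thus above that after myoblasts.

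**Figure D4:**
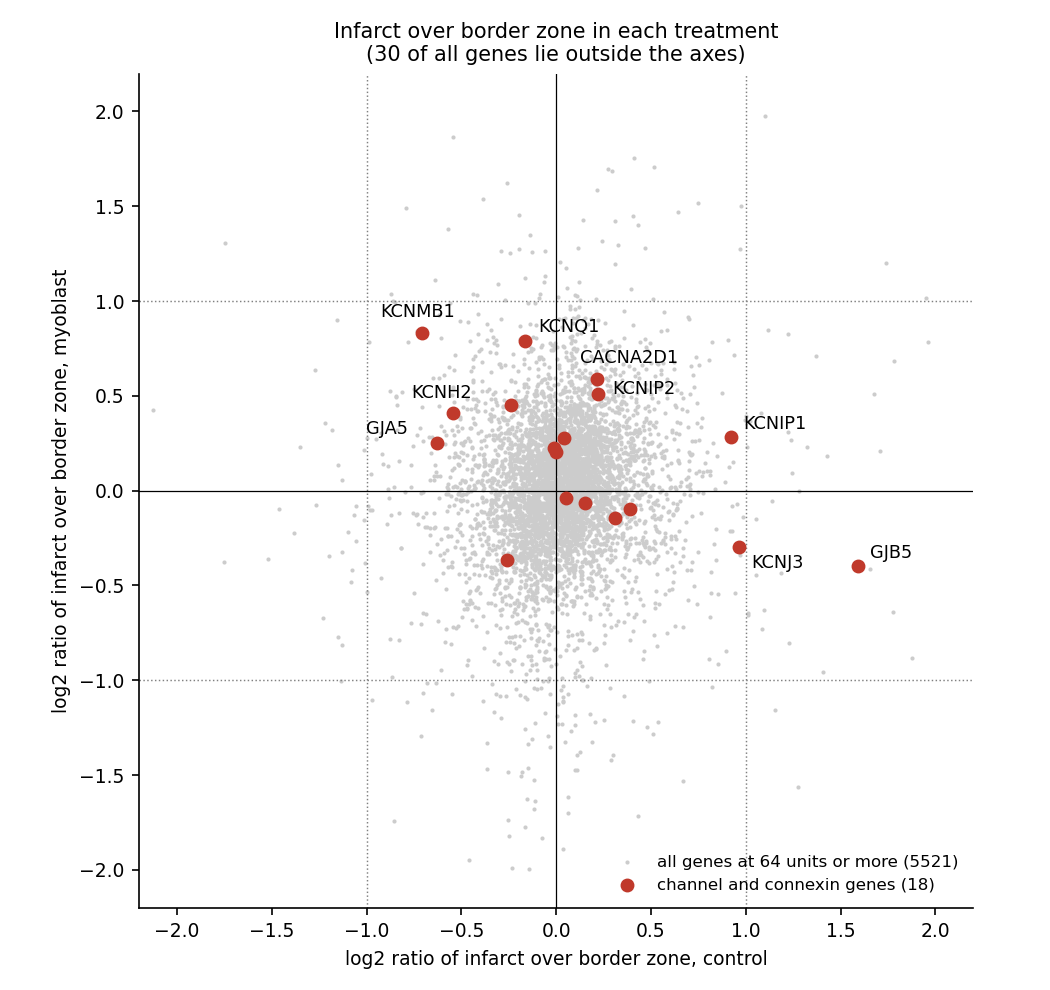
Log2 ratio of infarct over border zone in control hearts (x axis) and after myoblasts (y axis) for the 18 channel and connexin genes (red) over all genes with a mean signal of at least 64 units (grey). Dotted lines mark 2-fold, which GJB5 passes in controls (1.59), and KCNMB1 lies on opposite sides of 0 (-0.71 and 0.83).

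Genes that work with the channels were examined from lists drawn up with earlier results of these data known. The study had already listed an FGF13-like gene (0.420 times control) and ANK3 as lower with myoblasts. The counts below are therefore not independent of these data. Of 24 genes of the intercalated disc and of channel regulation, 12 reached 64 units, of which 8 were lower and 1 higher in both zones. Of all genes, 32.1% were lower and 34.9% higher in both. The median log2 ratio in the zone mean was -0.22, against 0.02 for all genes and -0.08 for those of at least 2048 units. For the 9 cardiomyocyte markers it was -0.26. The part of myocyte content in the ratios of these lists was not tested. FGF13, an intracellular fibroblast growth factor, binds sodium channels and sets their availability. It was the only 1 of the 12 genes at least 2-fold lower in the zone mean, against 1.45% of all genes. Its signals were 579 against 1379 at the border and 650.0 against 1523 in the infarct, or 0.420 and 0.427 times control. ANK3 (ankyrin G, which anchors sodium channels) gave 103 against 183 and 158 against 201. Desmoplakin, DSP, was 0.716 and 0.976 times control, and beta-catenin, CTNNB1, 0.996 and 0.991 times. JUP was 1.16 and 0.660 times and PKP4 0.822 and 0.702 times. Each of these structural genes of the disc differed less than FGF13.

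Of 18 genes of the sodium pump, the sodium-calcium exchanger and calcium release, 10 reached 64 units, with 7 lower and 1 higher in both zones, against the same 32.1% and 34.9% of all genes, and a median of -0.23. Calsequestrin 2, CASQ2, the calcium buffer of the sarcoplasmic reticulum, had signals of 562 against 1027 and 719.9 against 1129 (0.548 and 0.638 times), though a dimmer probe set gave 1.28 and 1.12 times. The exchanger SLC8A1 was 0.375 and 0.793 times control at signals of 56.6 to 151. The calcium pump ATP2A2, at 0.999 and 1.12 times, and phospholamban, PLN, at 0.872 and 0.897 times, were close to control. None of the 10 was 2-fold different in the zone mean.

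Of 20 transcription factors of cardiac and conduction cells, 7 reached 64 units, with a median of -0.10. KLF15, a myocyte transcription factor that is known in mouse heart to activate the KChIP2 gene, was the only 1 at least 2-fold lower in the zone mean (background 1.45%). Its signals were 353 against 907 at the border and 469 against 802 in the infarct, or 0.390 and 0.585 times control. GATA4 (0.834 and 1.13 times) and MEF2A (0.833 and 0.848 times) were closer to control. Of 26 channels of other families, 8 reached 64 units, and none was 2-fold different in the zone mean (median -0.14). The water channel AQP1, at 0.503 and 0.541 times control, was the farthest from 1 among these 8, and its other probe set gave 0.507 and 0.968 times.

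**Figure D5:**
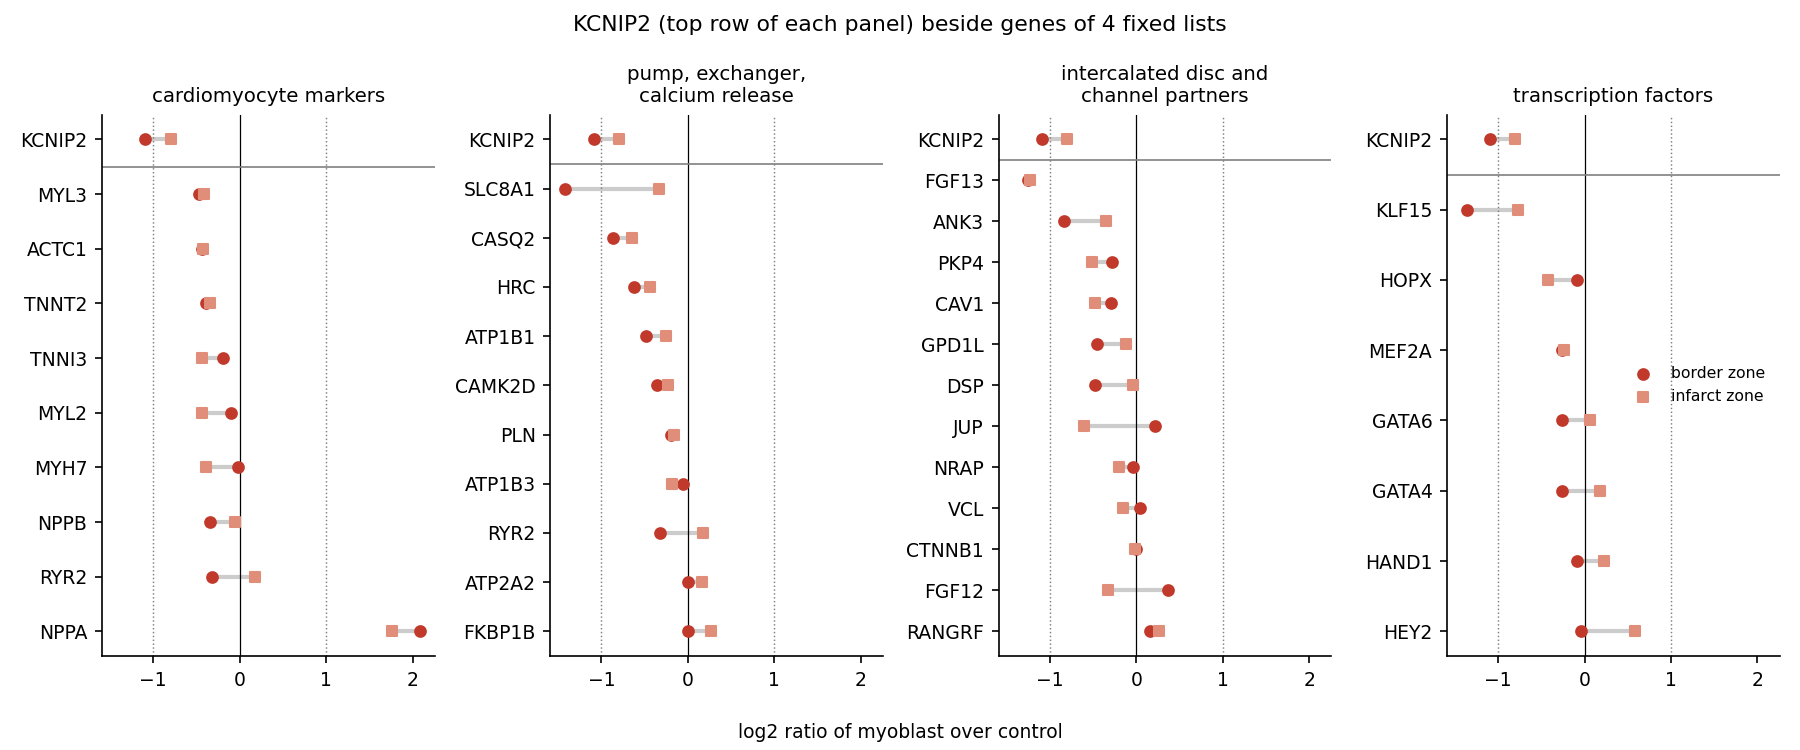
Myoblast over control as log2 ratio (x axis), at the border (circles) and in the infarct (squares), for KCNIP2, repeated in the top row of each panel, and for the genes of at least 64 units in 4 fixed lists. Contractile cardiomyocyte markers lie between -0.47 and -0.02 at the border. FGF13 (-1.25 and -1.23) lies below KCNIP2 (-1.09 and -0.80) in both zones, and KLF15 (-1.36 and -0.77) below it at the border.

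Markers of further cell types differed between the arrays. Summed signals of macrophage and monocyte markers (7 of 10 with a named probe set) were 5253 and 6373 at the border and in the infarct with myoblasts and 3963 and 4432 in controls. Those of fibroblast markers (6 of 8) were 69127 and 42028 against 54789 and 55095. Nerve and Schwann cell markers (4 of 10) summed to 2628 and 2037 against 1877 and 1911. Adipocyte markers (4 of 6) summed to 8102 and 11812 against 7309 and 7381. FABP4, at 3.18 and 4.99 times control, made up most of the adipocyte sums with myoblasts. LPL was 0.455 and 0.729 times control, LEP 1.05 and 0.291 times, and the dim ADIPOQ 0.777 and 0.568 times. Macrophage sums were higher with myoblasts in both zones, but single markers varied. Of the 5 macrophage markers of at least 64 units, 4 were higher in both zones, and CD163 was 0.792 and 1.39 times control. The dim ITGAM (CD11b) was 3.25 and 0.668 times, and the dim CD14 0.781 and 2.76 times. By staining, the study reports fewer CD11b-positive cells with myoblasts. The part of macrophages in the ratios of channel genes was not tested.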

How the data were processed

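RNA of 4 heart tissue samples was hybridised to Affymetrix Porcine Genome Arrays. The authors computed log2 signals with MAS5 and deposited these; MAS5 subtracts background and scales each array; the mean signal after trimming 2% at each end was about 500.1 on every array. They were used as deposited, 1 value per probe set and array, and the number of arrays limits the precision. Symbols came from the platform annotation, and gene IDs found 32 of the 35 genes in the reference, each under the same symbol. Log2 differences of myoblast minus control were taken within each zone and averaged, and called at 2-fold, the threshold of the methods, with no test.

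Alternatives were centring each array on its median, quantile normalization, a floor at the 25th percentile or at the median of an array, other signal limits (none, 128 units, the arithmetic mean), averaging the probe sets of a gene, each zone alone, the ratio of arithmetic means, 1.5-fold, and limma 3.58.1 (R 4.3.3) with and without zone, with Benjamini-Hochberg adjustment over all probe sets. Calculations used Python 3.11.15 with pandas 2.3.3, and the steps were tested on simulated data. Values are named for a fixed list of cardiac channel genes, and for genes at 64 units or more that were 2-fold in a zone or in the mean, or 1.5-fold the same way in both zones or between zones in both treatments; others are named where a count needs them. The genes, lists and rules were chosen with earlier results of these data known. Lists covered markers of cardiomyocytes, skeletal muscle, smooth muscle, endothelium, fibroblasts, macrophages, nerve and adipocytes, and 4 lists of channel partners. No genome or sequence of the array's targets was used here.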

Additional observations from a re-analysis of the deposited data

Results flagged for a closer look

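GJB5, an epithelial connexin, had ratios of myoblast over control on opposite sides of 1 in the zones, 2.13 at the border and 0.537 in the infarct, a difference of -1.99 on the log2 scale. This difference was not tested, since each condition has 1 array. Its signals lay between 39.0 and 118 units, under the array medians of 137 to 142 units.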

How the results depend on the processing

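The count of 1 gene higher by 2-fold or more in the zone mean (KCNMB1, log2 ratio 1.02) became 0 with quantile normalization (0.998), centring on array medians (0.988), signals floored at the array median (0.77), averaged probe sets (0.07) and both limma fits, 2 with an arithmetic mean signal of 64 units (19 genes) and 3 with no signal limit (35 genes). limma called 0 of 24123 probe sets at an adjusted p of 0.05, with 2125 (zone in the model) and 2469 (no zone) at an unadjusted p under 0.05, among them KCNIP2 alone of the 18 genes. The count of 0 at least 2-fold lower was 2 in the border zone alone, 1 in the infarct zone alone and 2 at 1.5-fold. The median log2 ratio, 0.02, was -0.10 in the infarct zone alone. The median of infarct over border was 0.20 in controls with averaged probe sets, and after myoblasts 0.080 with averaged probe sets and 0.11 with each array floored at its median. Of 144 values of single genes under the alternatives, 131 kept their side of 2-fold and, under 2-fold, moved by no more than 1.5-fold. Some of these could not change, so the count does not measure robustness. The floor at the 25th percentile lay below every signal of the 18 genes and left their values unaltered. Averaging probe sets could alter only the 10 genes with 2 or more of them. With all probe sets averaged, the log2 ratio of KCNE1 went from 0.12 to -0.73 and that of KCNJ3 from -0.38 to 0.42. Those of KCNJ5 (-0.19 to 0.098), CLCN3 (-0.13 to 0.10) and GJB5 (0.098 to -0.12) changed sign but are counted among the 131. Arrays were paired by zone throughout, and the limma fits differ in whether zone is a term; the labels carry no replicate numbers to use as a block.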
